A study of Mus musculus with 12 samples.

Results

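The reproductive homeobox (Rhox) genes are a family of homeobox transcription factor genes that lie side by side on the mouse X chromosome. The 5 genes Rhox1, Rhox4b, Rhox5, Rhox6 and Rhox9 were chosen by name, and were found among 25759 genes in each of 12 tables. The tables list 34 genes named Rhox in all, and 954 genes of the X chromosome. RNA was measured in mouse HATX3 embryonic stem cells (ESCs), a line of haploid origin that had become diploid in culture and in which doxycycline turns on Xist from its own locus through an rtTA transactivator. The 4 groups were wild-type cells without doxycycline (uninduced), wild-type cells in which Xist had been expressed for 48 h (induced), uninduced Cdk8-/- cells and Cdk8-/- cells likewise induced for 48 h, with 3 libraries in each. The wild-type samples, numbered 1, 2 and 3, were parental cells, whereas each Cdk8-/- sample was a single clone (8, 11 or 15) with a small deletion around the start codon, and a small insertion was reported for 1 of the clones. A difference between genotypes and a difference between a mixed culture and single clones therefore cannot be told apart. Induction was compared within a genotype to follow silencing by Xist. The genotypes were compared to ask how silencing changes without Cdk8, a kinase of the Mediator complex.

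Homeobox proteins bind DNA and switch developmental genes on or off. Rhox genes are known for expression in the testis, ovary, epididymis and placenta, and most are kept silent by DNA methylation in cells of the embryo proper. Rhox5, also known as Pem, is the founding gene and is active in Sertoli cells and in extraembryonic tissue. Rhox6 and Rhox9 are known as the placenta-specific homeobox genes Psx1 and Psx2, and the Rhox4 copies include genes that were first found in differentiating ESCs. Xist RNA coats the X chromosome it is made from and silences most of its genes.

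The 5 genes span 688 kb of the X chromosome of GRCm38. Rhox1 (ENSMUSG00000071773) lies on the reverse strand from 37213804 to 37222258, and Rhox4b (ENSMUSG00000071771) on the forward strand from 37432494 to 37437279. Rhox5 (ENSMUSG00000095180) lies on the forward strand from 37804842 to 37808876. It is followed by Rhox6 (ENSMUSG00000006200), on the forward strand from 37826910 to 37829857, and by Rhox9 (ENSMUSG00000068048), on the reverse strand from 37899097 to 37901770. All 34 Rhox genes have the same positions in GENCODE vM21.

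How far these genes can be told apart by single reads follows from their transcripts. No stretch of read length from Rhox1 or Rhox5 occurs in another Rhox transcript of GENCODE vM21, and the longest run that Rhox5 shares with another is 16 bases. Rhox6 and Rhox9 share a run of 161 bases, all of it coding sequence in 1 exon of each gene, so that 37 of the 886 stretches of read length in Rhox6 also occur in Rhox9. The run is shown because reads within it cannot be assigned to either gene; it lies at chrX:37827450-37827610 (forward strand) in Rhox6 and at chrX:37901167-37901327 (reverse strand) in Rhox9.
Rhox6 and Rhox9: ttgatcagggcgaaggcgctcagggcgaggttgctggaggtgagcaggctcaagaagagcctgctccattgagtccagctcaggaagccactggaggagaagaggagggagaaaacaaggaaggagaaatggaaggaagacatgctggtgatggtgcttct
By contrast, 76.8% of the stretches of Rhox4b occur in another Rhox transcript, with a longest run of 549 bases in Rhox4g. Uniquely mapped reads made up all of the exon reads of Rhox1 and Rhox5, 91.7% to 96.0% of those of Rhox6 and 81.8% to 95.2% of those of Rhox9, in libraries with at least 10 exon reads. Rhox4b can be separated from its copies only in part in these data, by the stretches that no other Rhox transcript holds.

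Promoters are shown for CpG content, because methylation of CpG is the known control of this family; methylation was not measured in these libraries. RefSeq promoters of GRCm38.p6 matched 3 of the 5 genes, and the 250 bases before each start are given with CG in capitals, read on the gene's strand. They lie at chrX:37222259-37222508 (reverse strand) for Rhox1, chrX:37432244-37432493 (forward strand) for Rhox4b and chrX:37754358-37754607 (forward strand) for Rhox5.
Rhox1: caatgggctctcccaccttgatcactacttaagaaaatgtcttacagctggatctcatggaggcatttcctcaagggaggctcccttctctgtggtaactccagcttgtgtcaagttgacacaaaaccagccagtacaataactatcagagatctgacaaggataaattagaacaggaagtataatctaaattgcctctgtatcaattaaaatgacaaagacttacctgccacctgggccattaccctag
Rhox4b: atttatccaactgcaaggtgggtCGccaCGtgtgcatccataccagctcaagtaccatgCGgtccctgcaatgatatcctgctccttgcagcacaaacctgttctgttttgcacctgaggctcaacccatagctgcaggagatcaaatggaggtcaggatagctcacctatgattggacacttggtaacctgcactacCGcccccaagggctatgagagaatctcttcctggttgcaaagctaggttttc
Rhox5: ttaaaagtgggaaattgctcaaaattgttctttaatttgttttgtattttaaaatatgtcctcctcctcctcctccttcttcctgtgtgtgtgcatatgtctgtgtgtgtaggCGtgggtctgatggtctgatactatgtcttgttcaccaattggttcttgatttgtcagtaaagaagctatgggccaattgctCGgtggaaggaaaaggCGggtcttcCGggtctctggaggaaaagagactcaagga
The Rhox1 window holds 0 CG, as do 7.87% of the windows of the same length before 32851 RefSeq starts. The Rhox4b and Rhox5 windows hold 4 CG each, whereas the median window holds 6 and 62.2% hold 4 or more. The RefSeq start of Rhox5 lies 50234 bp upstream of the start of the gene that the authors counted, so its window belongs to a transcript start outside the counted model.

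Libraries held 22170087 to 60798578 reads on genes. All 8 markers of pluripotent cells were at 1 TPM (the authors' unit, reads per kilobase of exon scaled to the same sum in each library) or more in every library, with sums of 2188 to 3698 TPM. The Cdk8 gene was at 51.5 to 74.2 TPM in wild-type libraries. In uninduced clones 8, 11 and 15 it was at 34.4, 56.8 and 85.3 TPM and in the induced ones at 33.4, 57.8 and 84.9 TPM, so clone 15 was above every wild-type library. Since only a short stretch of the gene is deleted, gene-level TPM does not check the genotype labels. Xist RNA was not analysed here.

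Expression of Rhox5 differed more between lines (the 3 wild-type samples and the 3 clones) than within them. In uninduced wild-type samples 1, 2 and 3, Rhox5 was at 662, 47.0 and 8.21 TPM. In uninduced clones 8, 11 and 15 it was at 2031, 1109 and 692 TPM. Every clone was above every wild-type sample, although the gap between clone 15 and wild-type sample 1 was small. Between the wild-type samples the highest value was 80.6-fold the lowest. The range on the log2(TPM + 1) scale was 6.17, the largest of 11801 expressed genes (mean TPM of at least 1 in uninduced wild-type samples). Among the clones the range of Rhox5 was 1.55, and 713 of 12313 genes had a range at least as large.

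Rhox6 and Rhox9 varied together. Uninduced wild-type samples 1, 2 and 3 had 109, 6.99 and 5.58 TPM of Rhox6, and 35.2, 1.80 and 2.76 TPM of Rhox9. Clones 8, 11 and 15 had 430.3, 30.4 and 202 TPM of Rhox6, and 138, 7.42 and 62.5 TPM of Rhox9. Wild-type sample 1 was the highest of its group for both genes and lay above clone 11, so that the genotypes overlapped. Ranges between wild-type samples were 4.07 for Rhox6 and 3.69 for Rhox9, the 10th and 17th largest of the 11801 genes. Among the clones Rhox9 had the 12th and Rhox6 the 17th largest range of 12313 genes. For comparison, the highest over the lowest uninduced wild-type value was between 1.035 and 2.685 for 19 expressed neighbouring genes within 1 Mb of the Rhox genes.

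Rhox1 was low and Rhox4b close to absent. Rhox1 was at 3.10, 1.37 and 0.725 TPM in uninduced wild-type samples 1, 2 and 3, and at 9.97, 0.745 and 2.46 TPM in uninduced clones 8, 11 and 15. These values rest on 15 to 34 exon reads in the wild-type samples and 12 to 198 in the clones, and the genotypes overlapped. Rhox4b had 0 reads in all 6 wild-type libraries, where a count of 0 allows up to 3 reads. It reached 0.350 TPM at most, in uninduced clone 15, and no library had more than 6 reads on the gene.

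The order of TPM levels, which are per exon length, was Rhox5, Rhox6, Rhox9, Rhox1 and Rhox4b in 10 of 12 libraries. In induced wild-type sample 2, Rhox1 and Rhox4b were both at 0. In induced wild-type sample 3, Rhox1 (0.338 TPM) stood above Rhox9 (0.264 TPM), on 5 and 11 exon reads. The ratio of Rhox6 to Rhox9 was 3.12 to 4.10 in uninduced and 3.09 to 4.95 in induced clones. It was 2.02 to 3.87 in uninduced and 2.78 to 12.3 in induced wild-type samples, the highest being that of sample 2, with 3 exon reads of Rhox9. The ratio of Rhox5 to Rhox6 was less even. It was 4.72 in clone 8, 36.4 in clone 11 and 3.42 in clone 15, all uninduced. Rhox5 exceeded Rhox6 in 12 of 12 libraries. The Rhox9 level depends on an exon length of 2488 bp in the tables, since its shorter annotated transcript has 882 bases.

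**Figure D1:**
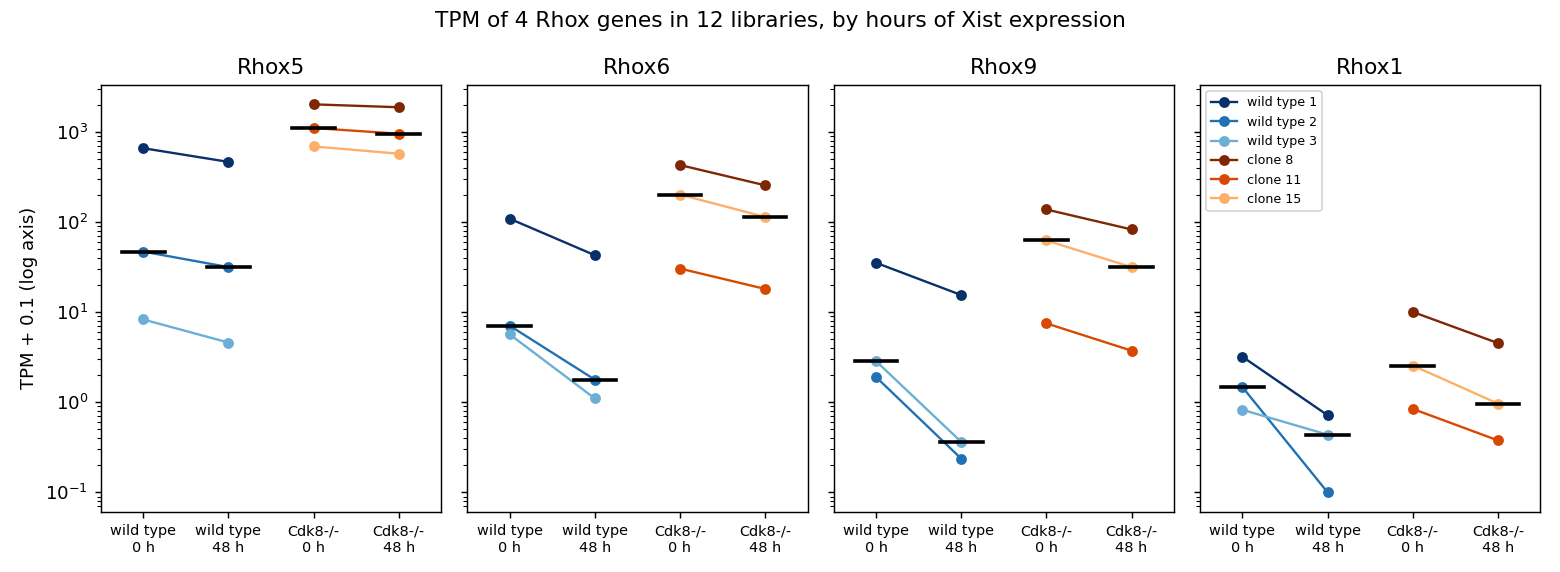
TPM + 0.1 on a log axis for Rhox5, Rhox6, Rhox9 and Rhox1 at 0 h and 48 h of Xist expression; each point is a library, lines join libraries of the same wild-type number or clone, and black bars are group medians. Wild-type sample 1 was the highest of the wild-type samples for all 4 genes at 0 h, and clone 11 was the lowest clone for Rhox6, Rhox9 and Rhox1.

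In uninduced cells, no Rhox gene passed the threshold of the study (fold change above 2 and adjusted p under 0.01) between Cdk8-/- and wild type. Here 4 of the 5 genes could be tested, since Rhox4b did not pass the filter on low counts, and 0.0% of 14646 genes were called higher in Cdk8-/- cells; 2982 had an unadjusted p under 0.05 in either direction, and DESeq2 called 264 genes higher, no Rhox gene among them. The log2 fold change was 2.28 for Rhox5 (SE 1.32, adjusted p = 0.339 by edgeR's quasi-likelihood test), 2.23 for Rhox6 (SE 1.27) and 2.18 for Rhox9 (SE 1.29). It was 1.16 for Rhox1 (SE 0.96), with all 4 adjusted p between 0.333 and 0.485. The median over these genes was 2.20, against 0.03 over all genes tested. Without wild-type sample 1 the log2 fold change of Rhox5 was 5.39 (SE 0.95, adjusted p = 0.0464 by edgeR), so the height of this difference rested on that library. Without it Rhox6 stood at 4.86 and Rhox9 at 4.69. Without clone 8 the log2 fold change was 1.82 for Rhox5, 1.28 for Rhox6 and 1.16 for Rhox9, and that of Rhox1 turned to -0.29.

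After 48 h of Xist expression, Rhox1, Rhox5, Rhox6 and Rhox9 were lower than in the uninduced library of the same line in all 6 pairs, and Rhox5 kept the most of its RNA in each. Residual TPM is the TPM of an induced library over that of the uninduced library with the same wild-type number or clone. Rhox5 was at 466, 31.6 and 4.51 TPM in induced wild-type samples 1, 2 and 3, which left 0.705, 0.672 and 0.549 of its uninduced level. It was at 1885, 958 and 576 TPM in induced clones 8, 11 and 15, which left 0.928, 0.864 and 0.832. The mean residual TPM was 0.642 ± 0.0821 in wild type and 0.875 ± 0.0491 in Cdk8-/- cells (SD, n = 3). Every clone was above every wild-type pair. The difference of 0.233 had p = 0.1 in a two-sided exact permutation test, which is the smallest p that 3 against 3 can give.

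Rhox6 fell to 42.8, 1.68 and 1.00 TPM in induced wild-type samples 1, 2 and 3, a residual TPM of 0.393, 0.241 and 0.180. In induced clones 8, 11 and 15 it stood at 256, 18.03 and 114 TPM, a residual TPM of 0.596, 0.592 and 0.563. The clones differed little from each other although their uninduced Rhox6 levels spanned 14.1-fold. The means were 0.271 ± 0.110 in wild type and 0.584 ± 0.0181 in Cdk8-/- cells (SD, n = 3), and the groups did not overlap (exact permutation p = 0.1).

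Rhox9 was at 15.4, 0.137 and 0.264 TPM in induced wild-type samples 1, 2 and 3, and its residual TPM was 0.437, 0.0758 and 0.0954. Sample 1 stood apart here. The value of sample 2 came from 63 exon reads before and 3 after induction, and its 95% interval for counting error (Clopper-Pearson) was 0.0152 to 0.232. In induced clones 8, 11 and 15, Rhox9 was at 82.9, 3.64 and 31.6 TPM, which left 0.600, 0.491 and 0.505. The means were 0.203 ± 0.203 and 0.532 ± 0.0595 (SD, n = 3), and every clone was above every wild-type pair (exact permutation p = 0.1). PCR copies are counted as reads, so such intervals cover counting error only.

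Rhox1 was at 0.618, 0 and 0.338 TPM in induced wild-type samples 1, 2 and 3, and its residual TPM was 0.199, 0 and 0.466. The 0 of sample 2 followed 17 exon reads before induction, and its interval reached 0.386. In clones 8, 11 and 15 the residual TPM was 0.446, 0.373 and 0.353. The genotypes overlapped (exact permutation p = 0.4). Rhox4b gave no usable ratio, with 1 and 5 exon reads before and after induction in clone 8, 5 and 0 in clone 15, and 0 in clone 11.

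The other X-linked genes give the scale for these ratios. The median residual TPM of 426 expressed X-linked genes was 0.340, 0.328 and 0.272 in wild-type pairs 1, 2 and 3, and that of 445 genes was 0.571, 0.608 and 0.598 in clones 8, 11 and 15. Rhox5 was above this median in 3 of 3 wild-type pairs and 3 of 3 clones, and its mean residual exceeded that of 84.3% of the X-linked genes in wild type and 91.7% in Cdk8-/- cells. Rhox6 was close to the middle, above 43.0% and 48.3% of the X-linked genes. Rhox9 was above 29.8% and 39.3%, and Rhox1 above 145 of 426 and 69 of 445. In wild type the means of Rhox9 and Rhox1 turned on single pairs. Without sample 1 the mean residual of Rhox9 was 0.0856, above 13.1% of the X-linked genes. That of Rhox1 was 0.332 without sample 2 and 0.0997 without sample 3, above 230 and 53 of the 426 genes.

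In the comparison of induced with uninduced samples that ignores the line, none of the Rhox genes passed the threshold with all samples. In wild type, 3 could be tested after the filter on low counts and 0 were called, whereas 1.01% of 14006 genes were called lower. The log2 fold change was -0.53 for Rhox5 (SE 1.79, adjusted p = 0.903 by edgeR), -1.46 for Rhox6 (SE 1.61) and -1.37 for Rhox9 (SE 1.73). Without wild-type sample 1 the log2 fold change of Rhox9 was -3.38 (adjusted p = 0.00722 by edgeR), past the threshold, and that of Rhox6 was -2.31 (adjusted p = 0.0116 by edgeR). With all samples none of the 3 had an unadjusted p under 0.05, and DESeq2 called 0 as well, with no adjusted p for Rhox6 and Rhox9. In Cdk8-/- cells 0 of 4 Rhox genes and 0.0% of 14832 genes were called lower (392 genes had an unadjusted p under 0.05, no Rhox gene among them). The spread between lines described above enters these errors.

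With the wild-type number or clone as a block, the decreases stood out from the error. In wild type Rhox6 passed the threshold, with a log2 fold change of -1.83 (SE 0.24, adjusted p = 0.00598 by edgeR), as did 2.48% of all genes and 52.3% of 480 X-linked genes. Rhox5 changed by -0.59 (SE 0.09, adjusted p = 0.00965 by edgeR), which is less than 2-fold. Rhox9 fell by 2.12 on the log2 scale (SE 0.44, adjusted p = 0.0238 by edgeR). At an adjusted p under 0.05, 3 of 3 tested Rhox genes were lower, against 10.8% of all genes and 80.2% of X-linked genes. The median over the 3 genes was -1.83, against -1.59 over X-linked genes and 0.03 over all genes. Without wild-type sample 2 the adjusted p was 0.0756 for Rhox5, 0.0463 for Rhox6 and 0.0953 for Rhox9. Without wild-type sample 1 the log2 fold change of Rhox9 was -3.44 and passed the threshold.

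In Cdk8-/- cells with the block, 0 of 4 Rhox genes passed the threshold, as did 1.27% of all genes and 24.1% of 531 X-linked genes. Rhox6 fell by 0.75 on the log2 scale (SE 0.08) and Rhox9 by 0.87 (SE 0.09), each with an adjusted p of 2.76e-06 by edgeR. Rhox1 fell by 1.21 (SE 0.32, adjusted p = 0.0181 by edgeR), which was lost without clone 8 (adjusted p = 0.241) and without clone 15 (adjusted p = 0.0516). Rhox5 was at -0.16 (SE 0.07, adjusted p = 0.173 by edgeR). At an adjusted p under 0.05, 3 of 4 Rhox genes were lower, against 6.16% of all genes and 69.7% of X-linked genes. The median over the 4 genes was -0.81, against -0.73 over X-linked genes.

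The difference between the genotypes in this response was tested as an interaction. Without the block 0 of 4 Rhox genes and 0.0% of 15137 genes passed the threshold for a higher fold change in Cdk8-/- cells. None of the 4 had an unadjusted p under 0.05 by edgeR or DESeq2, against 587 and 741 of all genes. With the block, 0 of 4 passed it, against 0.78% of all genes and 16.8% of 549 X-linked genes. At an adjusted p under 0.05 the difference held for Rhox5, with 0.44 (SE 0.11, adjusted p = 0.0470 by edgeR), and for Rhox6, with 0.97 (SE 0.21, adjusted p = 0.0293 by edgeR). These are 2 of 4 Rhox genes, against 3.55% of all genes and 41.5% of X-linked genes. Rhox9 had 0.97 (SE 0.39, adjusted p = 0.176 by edgeR) and Rhox1 had 1.17 (SE 0.74, adjusted p = 0.383). For Rhox5 the adjusted p was between 0.0916 and 0.213 without wild-type sample 2 or 3 or without any of the clones. For Rhox6 it was between 0.05 and 0.148 without these. Without wild-type sample 1 it was 0.0303 for Rhox5 and 0.000570 for Rhox6, and the differences of Rhox6 (1.57) and Rhox9 (2.54, adjusted p = 0.000165 by edgeR) passed the threshold. The interaction shares its wild-type and Cdk8-/- libraries with the other comparisons.

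The genes on either side of the Rhox genes were lower after induction as well: with the block, 18 of 19 tested neighbours had an adjusted p under 0.05 in wild type, against 80.2% of X-linked genes. Of 29 other X-linked genes starting within 1 Mb, 19 had a mean of at least 1 TPM in uninduced wild-type samples. Their median residual TPM was 0.356 in wild type and 0.640 in Cdk8-/- cells, and 18 of 19 had a higher residual in Cdk8-/- cells. Rhox5 was above 17 of the 19 in wild type and above 18 in Cdk8-/- cells. The nearest on the left, Rnf113a1, had a residual TPM of 0.385 ± 0.189 in wild type and 0.528 ± 0.115 in Cdk8-/- cells (SD, n = 3). The nearest on the right, Zbtb33, which encodes the methyl-CpG binding protein Kaiso, had 0.318 ± 0.119 and 0.631 ± 0.162. Lonrf3 had the lowest wild-type residual of the 19 (0.0895 ± 0.0218, against 0.499 ± 0.152 in Cdk8-/- cells). Ndufa1, a subunit of respiratory complex I, had the highest (0.876 ± 0.254, against 0.748 ± 0.0829) and was the gene without a higher residual in Cdk8-/- cells. With the block, 12 of 19 tested neighbours passed the threshold in wild type, against 52.3% of X-linked genes, and 1 of 20 in Cdk8-/- cells, against 24.1%. At an adjusted p under 0.05 by edgeR, 16 of the 20 were lower in Cdk8-/- cells, against 69.7% of X-linked genes.

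**Figure D2:**
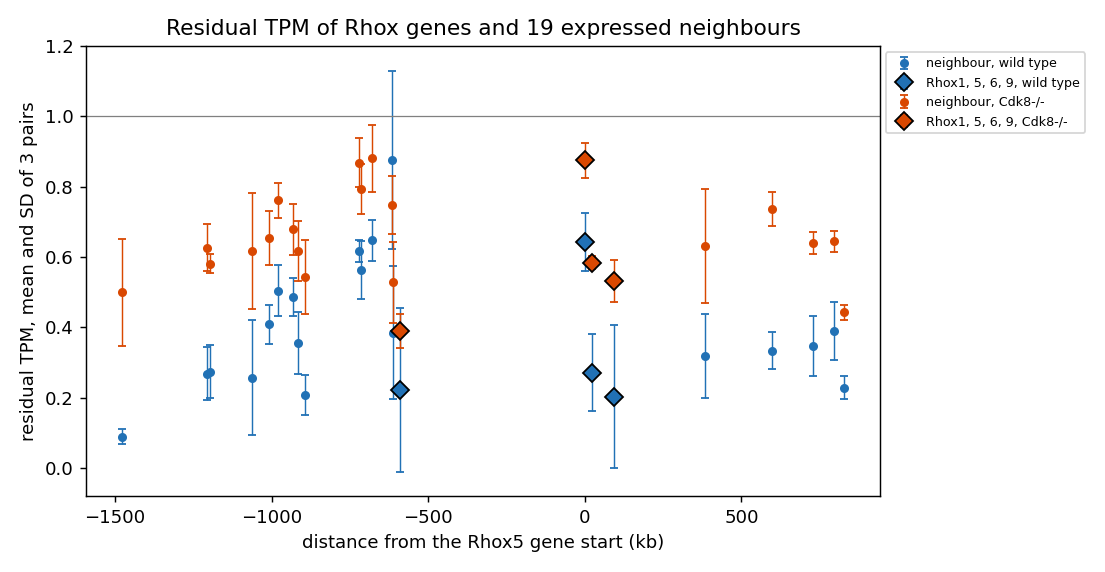
Residual TPM (mean and SD of 3 pairs) against the distance in kb from the Rhox5 gene start, for Rhox1, Rhox5, Rhox6 and Rhox9 (diamonds) and 19 expressed neighbours (circles) in wild type (blue) and Cdk8-/- cells (orange). Of the 19 neighbours, 17 lay below Rhox5 in wild type and 18 in Cdk8-/- cells.

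The remaining 29 Rhox genes were at low levels. No read was counted in any library for 6 of them, 18 stayed below a mean of 1 TPM in every group, and 5 reached it. Rhox13, which is known from male germ cells, was at 2.11, 0.325 and 1.27 TPM in uninduced wild-type samples 1, 2 and 3 and at 6.75, 2.44 and 3.82 TPM in uninduced clones 8, 11 and 15. Every clone was above every wild-type sample, with a log2 fold change of 1.64 (SE 0.69, adjusted p = 0.240 by edgeR). Rhox7b was at 0.664, 0.196 and 0.0391 TPM in the wild-type samples and at 4.97, 0.352 and 1.59 TPM in the clones, so the genotypes overlapped. Its log2 fold change was 3.30 (SE 1.29, adjusted p = 0.222 by edgeR). Rhox4a2, Rhox4e and Rhox4g had group means of at most 1.59, 1.28 and 2.53 TPM, all in uninduced Cdk8-/- cells.

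Because reads of the Rhox4 copies are mostly shared, the 8 copies were also summed. Their summed TPM was 3.59, 0.218 and 0.135 in uninduced wild-type samples 1, 2 and 3 and 12.6, 0.591 and 5.66 in uninduced clones 8, 11 and 15, with 10% to 33.3% of the exon reads unique. The order of the lines was that of Rhox6 in the clones. The number of Rhox genes at 1 TPM or more was 12 in uninduced clone 8, 9 in clone 15 and 4 in clone 11, against 6, 4 and 4 in wild-type samples 1, 2 and 3. In all 6 lines it was lower or equal after induction, at 10, 5, 4, 3, 2 and 2 in the same order.

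**Figure D3:**
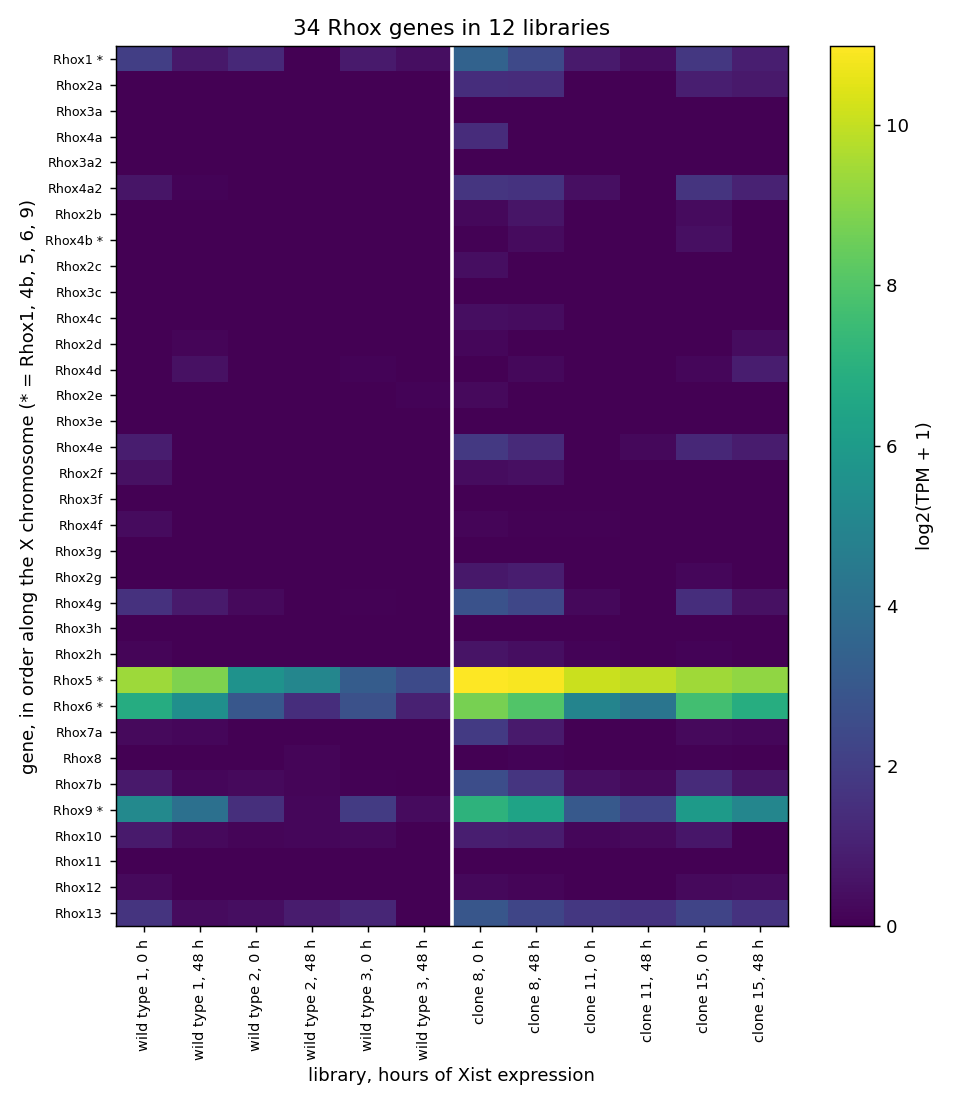
Heat map of log2(TPM + 1) for the 34 Rhox genes, in order along the X chromosome, in 12 libraries; wild-type lines are left and Cdk8-/- clones right of the white line. Rhox5 was the highest and Rhox6 the next highest Rhox gene in all 12 libraries, and clone 8 had the most Rhox genes at 1 TPM or more.

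Trophoblast markers also differed between lines. The summed TPM of 11 markers was 228, 55.5 and 81.1 in uninduced wild-type samples 1, 2 and 3 and 324, 118 and 633 in uninduced clones 8, 11 and 15. By this sum the 6 lines ranked as for Rhox9, except that clone 15 stood above clone 8, but the keratins Krt8 and Krt18 made up much of it (177 and 320.4 TPM in clone 15). The sum was 51.2 to 276 TPM in induced wild-type and 125.1 to 550.0 TPM in induced Cdk8-/- libraries. Of the 11 markers, 1 was below 1 TPM in uninduced wild-type sample 1 and 5 in each of samples 2 and 3. Hand1, a trophoblast transcription factor, was at 35.5, 0.285 and 0.598 TPM in uninduced wild-type samples 1, 2 and 3 and at 27.1, 9.36 and 35.4 TPM in uninduced clones 8, 11 and 15, so that no clone was above wild-type sample 1. Elf5, a defining factor of trophoblast stem cells, was at 1.24, 0 and 0.0157 TPM in the same samples and at 3.22, 0.766 and 1.76 TPM in the same clones. Ascl2 had a mean of 9.32 TPM in uninduced wild-type samples and 8.53 TPM in uninduced clones. Plac1 was listed at 0 in uninduced wild-type samples 2 and 3. The part of such cells in the Rhox levels was not tested, and in bulk RNA more cells of a type and more RNA per cell cannot be told apart. In the comparison of uninduced genotypes 0 of 11 markers passed the threshold, with a median log2 fold change of 0.92. With the block, 0 of 11 passed it in induced Cdk8-/- cells and 1 of 8 was higher in induced wild-type cells, against 1.47% of all genes.

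The 8 markers of pluripotent cells were compared in the same way. Between the uninduced genotypes their median log2 fold change was 0.47, with 0 of 8 past the threshold and 2 of 8 at an unadjusted p under 0.05 by edgeR, against 20.4% of all genes. DESeq2 put 1 of 8 past the threshold (Tfcp2l1), against 1.8% of all genes higher, and 2 of 8 at an adjusted p under 0.05 (Tfcp2l1 and Nanog), against 5.51%. Nanog was at 50.2 to 157 TPM in uninduced wild-type samples and 192 to 403 TPM in uninduced clones, and Tfcp2l1 at 10.01 to 39.4 and 76.7 to 102 TPM, both without overlap. Pou5f1 and Tdgf1 of the same list had lower means in uninduced clones, at 1206 against 1250 TPM and 673.7 against 758.6 TPM. After induction with the block, 5 of 8 were higher and 1 lower at an adjusted p under 0.05 by edgeR in wild type (median 0.68, against 12.2% of all genes higher). In Cdk8-/- cells 4 of 8 were higher and 1 lower (median 0.20, against 5.6%). Their part in the Rhox levels was not tested.

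Markers of other cells in which Rhox genes are known to act were also counted. Sums of 6 Sertoli cell markers stayed between 3.44 and 9.62 TPM in all libraries, and those of 8 primitive endoderm markers between 10.1 and 36.05 TPM. Sums of 9 germ cell genes, a list that includes genes used by ESCs such as Dppa3, were 114 to 191 TPM in uninduced wild-type and 99.7 to 222 TPM in uninduced Cdk8-/- libraries. Between the uninduced genotypes 0 of 3 tested Sertoli cell, 0 of 6 tested primitive endoderm and 0 of 9 germ cell genes passed the threshold. The germ cell genes had a median log2 fold change of 1.00, with 5 of 9 at an unadjusted p under 0.05 by edgeR, against 20.4% of all genes, and 5 of 9 higher at an adjusted p under 0.05 by DESeq2, against 5.51%. Ddx4, an RNA helicase of germ cells, was at 10.1, 14.5 and 17.8 TPM in uninduced wild-type samples 1, 2 and 3 and at 33.5, 24.1 and 37.8 TPM in uninduced clones 8, 11 and 15. Stra8, a gene of meiotic entry, was at 3.80, 1.11 and 0.426 TPM in the same wild-type samples and at 8.56, 4.68 and 26.6 TPM in the same clones. The genotypes did not overlap for either gene. Dppa3 and Prdm1 of the same list had lower means in the clones, at 73.9 against 111 TPM and 2.40 against 3.18 TPM. The median was 0.73 for the Sertoli cell and 0.56 for the primitive endoderm genes, with 1 gene of each list higher at an adjusted p under 0.05 by DESeq2 (Gata4, which both lists hold). DESeq2 also put 2 of 11 trophoblast markers there, Eomes and Tead4. Wt1 and Amh of the Sertoli cell list had lower means in uninduced clones, at 2.64 against 4.31 TPM and 0.0479 against 0.150 TPM. Sox7 of the primitive endoderm list also had a lower mean there, at 1.616 against 2.065 TPM. The genes named from these lists and from the pluripotent cell list were chosen after their values were seen.

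Of 19 regulators of DNA methylation and of its reading, 0 passed the threshold between the uninduced genotypes, with 5 at an unadjusted p under 0.05 by edgeR, against 20.4% of all genes. DESeq2 put 2 of the 19 past the threshold, Dnmt3a and Dnmt3b, both lower in Cdk8-/- cells, against 0.833% of all genes. It put 3 lower at an adjusted p under 0.05, against 3.41%, Mbd3 being the third. The median log2 fold change by edgeR was -0.26, against 0.03 over all genes. Dnmt3b, a de novo DNA methyltransferase, was at 548, 815 and 997 TPM in wild-type samples 1, 2 and 3 and at 295, 310 and 277 TPM in clones 8, 11 and 15. The groups did not overlap, and the log2 fold change was -1.54 (SE 0.23, adjusted p = 0.110 by edgeR). Dnmt3a, the other de novo enzyme, was at 94.5, 116 and 131 TPM against 31.9, 65.0 and 49.2 TPM, again without overlap (-1.35, SE 0.30, adjusted p = 0.130 by edgeR). Mbd3 had a log2 fold change of -1.04 (SE 0.34, adjusted p = 0.181 by edgeR). The maintenance factors Dnmt1 (129 to 161 against 130 to 142 TPM) and Uhrf1 (log2 fold change -0.19, SE 0.22) differed by less. Other members of the list were higher in uninduced clones without overlap. These were Zfp57 (101.5 to 154.5 against 180.5 to 243.5 TPM), Setdb1 (90.8 to 113.1 against 118.8 to 151.1 TPM) and Mbd2 (9.196 to 12.58 against 13.29 to 17.5 TPM). Whether these levels bear on the Rhox genes was not tested. After induction with the block, 2 of the 19 passed the threshold in wild type, both lower, among them the X-linked Zbtb33, and 0 of 19 passed it in Cdk8-/- cells.

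The genes whose pattern over the 12 libraries was most like that of each Rhox gene were listed by Pearson's r of log2(TPM + 1) among 12131 genes, as a description. The libraries come in pairs from 6 lines and share the split into genotypes. Rhox6 and Rhox9 were each other's nearest gene (r = 0.991), and they share the 161 bases given above; Rhox5 had r = 0.874 with Rhox6 and 0.810 with Rhox9. Rhox6 was next followed by M1ap (0.986) and Elf3 (0.978), and Rhox9 by B4galt1 (0.983) and Pygl (0.979). Those of Rhox5 included Fetub (0.964) and Rlbp1 (0.956), neither of them X-linked. For Rhox1 they were Rhox4g (0.953), Gm18336 (0.947) and Rnf26_2 (0.931).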

How the data were processed

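Polyadenylated RNA of 12 libraries was sequenced (stranded libraries, single-end reads). The authors aligned untrimmed reads to Ensembl GRCm38 (release 94) in CLC Genomics Workbench 11 and deposited 1 table per library. Deposited counts were raw numbers of reads, listed separately for genes, exons and introns. The authors' TPM values are exon reads per exon length scaled per library, and recomputed values differed by a relative 0.000196 at most. Deposited fraction columns hold the unique share of exon reads and the intronic share of gene reads; the first was recomputed from counts here. The authors' RPKM values were not used here.

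Groups, wild-type numbers and clones came from the sample titles. Nothing states that wild-type samples were separate cultures, so p-values measure the spread between these samples. Total gene reads were tested with edgeR 4.0.16 in R 4.3.3 (TMM, filterByExpr with minimum count 10 and total 15, quasi-likelihood F test, Benjamini-Hochberg adjustment over all genes tested); the study's threshold was kept (more than 2-fold, adjusted p under 0.01). The SE is the size of the log2 fold change over the square root of F. Samples of the same number deviated from their group means together (r = 0.640, 0.523 and 0.487 in wild type; 0.791, 0.853 and 0.759 in clones 8, 11 and 15), and clones are the same line, so fits with the number or clone as a block are given beside the others. DESeq2 1.42.0, other normalizations, filters and read kinds and leaving out each sample were alternatives. The fits without the block were also run on simulated counts with known fold changes, and those with the block were not. Residual TPM used Python 3.11.15, pandas 2.3.3 and scipy 1.17.1.

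Named beside the 5 genes were other Rhox genes with a group mean of at least 1 TPM, the nearest and the most extreme expressed neighbours within 1 Mb, methylation regulators past the threshold or with the 3 largest changes plus 4 preset ones, and the 3 genes most correlated with each Rhox gene. Some genes that this rule names are not reported here. Other genes were named from the marker lists and from the methylation regulators after their values were seen. The Rhox genes and the lists were chosen with earlier results of these data known.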

Additional observations from a re-analysis of the deposited data

Results flagged for a closer look

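For 2 of 4 tested Rhox genes, against 3.55% of all and 41.5% of X-linked genes, the response to Xist had an adjusted p under 0.05 for a difference between the genotypes, by the interaction of genotype and induction with the wild-type number or clone as a block. For Rhox5 the log2 fold change was higher by 0.44 in Cdk8-/- cells, and for Rhox6 by 0.97, at adjusted p of 0.0470 and 0.0293 by edgeR. Residual TPM was higher in 3 of 3 clones than in every wild-type pair for both genes. None of the 4 passed the threshold of the study. Without any of wild-type samples 2 and 3 or clones 8, 11 and 15, the adjusted p was between 0.0916 and 0.213 for Rhox5 and between 0.05 and 0.148 for Rhox6. Without the block neither difference had an unadjusted p under 0.05.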

How the results depend on the processing

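Without the block, 0 Rhox genes passed the threshold in each of the 4 comparisons, also with DESeq2, its size factors, TMM over autosomal genes, other filters, unique or exon reads, an adjusted p under 0.05 alone, and all 12 libraries in 1 fit. With the replicate block 1 passed in wild type (Rhox6), 1 with exon reads or autosomal TMM, and 2 without a filter other than 1 count. In Cdk8-/- cells 1 passed with the replicate block and no such filter (Rhox1). At an adjusted p under 0.05, 3, 3 and 2 passed with the replicate block in wild type, in Cdk8-/- cells and in the interaction. Leaving out 1 sample gave 0 to 1 calls without and 0 to 2 with the block in wild type, 0 and 0 to 1 in Cdk8-/- cells, and 0 and 0 to 2 in the interaction; such fits hold fewer samples, and wild-type sample 1 accounted for the calls above those of the full fits in wild type and in the interaction, clones 8 (Rhox9) and 11 (Rhox1) for those in Cdk8-/- cells. No paired analysis was possible for uninduced Cdk8-/- against wild type because the numbers of the genotypes are unrelated. The difference of Rhox1 in that comparison ranged from -0.286 (without clone 8, reversed) to 2.06 (without wild-type sample 1). Residual TPM of Rhox1 with 1 added to each TPM was 0.531 in wild type and 0.590 in Cdk8-/- cells. For Rhox9 it was 0.398 in wild type with 1 added and 0.397 with the mean of the 3 uninduced samples as denominator (no replicate block), against 0.203. The difference between genotypes of 0.329 for Rhox9 was then 0.158 (exact permutation p = 0.1) and 0.170 (exact permutation p = 0.5). With that mean the difference was 0.191 for Rhox5 (exact permutation p = 0.8) and 0.211 for Rhox6 (exact permutation p = 0.5). For log2 fold changes and residual TPM of single genes, 336 alternative values stayed. A fold change stayed with the same direction and side of the threshold, and a residual TPM within the SD of the reported pairs. Of the rest, 14 passed the threshold where the reported value did not, 2 moved beyond that SD and 1 reversed. For counts past the threshold and differences in residual TPM between genotypes, 110 stayed and 14 moved. A count stayed when it was equal. A difference stayed when it kept its sign, whatever its p. Among the chosen Rhox genes, Rhox1 and Rhox4b had the fewest exon reads. Rhox4b also shares most of its stretches of read length with other Rhox transcripts.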
